A study of Mus musculus with 9 samples.

Results

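The genes described here encode myeloid and B cell receptors of the immunoglobulin and lectin-like families in mouse lung: the Fc receptors, the Fc receptor-like proteins, the leukocyte immunoglobulin-like and paired immunoglobulin-like receptors (LILR and PIR), and the CD300, SIRP, Siglec and TREM families. They were chosen by name alone, as every gene in the deposited table whose symbol begins with *Fcgr*, *Fcer*, *Fcrl*, *Cd300*, *Lilr*, *Pira*, *Pirb*, *Siglec*, *Sirp* or *Trem*, with *Fcer1a* left out, which gave 53 of 34638 genes. There were 12 CD300 genes, 11 LILR and PIR genes, 7 Fc receptors, 7 Siglecs, 6 Fc receptor-like genes, 6 TREM genes and 4 SIRP genes. Where a gene is called the most abundant of its family or list, the mean FPKM over all 9 mice is meant unless a group is named. Of the 53, 46 had a mean of at least 0.5 FPKM (fragments per kilobase of transcript, scaled to the mapped fragments of the library) over the 9 mice and were tested; *Cd300c*, *Cd300ld2*, *Fcrl6*, *Pira2-ps2*, *Siglec15*, *Siglecl1* and *Treml1* were below it. This mean is taken over all groups, so *Fcrlb*, *Fcrl5*, *Trem2*, *Pira13*, *Pira2-ps1* and *Cd300ld4*, whose PBS mean was under 0.5 FPKM, passed it through the other groups.

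RNA-seq was performed on whole lung RNA from 9 wild-type C57BL/6 mice, 3 in each of 3 groups. The PBS group received phosphate-buffered saline, and the IL-33 group received 0.5 µg of recombinant mouse IL-33 into the trachea on each of days 0, 1, 2 and 3. The IL-33+LM8 group received the same IL-33 and, before it, LM8, an inhibitor of the adaptor MyD88, at 10 mg/kg into the peritoneum. No group received LM8 without IL-33, and the labels do not say whether the other mice were given the vehicle of LM8. The study's methods describe PBS and IL-33 mice as young adult females whose lungs were taken a day after the last instillation; the sex and age of the IL-33+LM8 mice are not given in the sources used here. The labels place each library in its own sample but do not say that the 3 mice of a group were housed or prepared apart, so p-values measure only the spread between these samples. Total counts per library were between 61767006 and 73869252 with PBS, between 53877663 and 66029783 with IL-33 and between 59753648 and 90607218 with IL-33+LM8. The deepest library of each group was PBS replicate 3, IL-33 replicate 1 and IL-33+LM8 replicate 3. Each deviated from its group mean in the same genes as the other 2, with correlations across genes of 0.647, 0.669 and 0.672. Each comparison was also fitted without the deepest library of each of its 2 groups. Calls of the named genes that were lost in that fit are given with the result. The lung markers *Sftpc*, *Scgb1a1*, *Ager* and *Epcam* were present in each library.

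Many of these receptors come as activating and inhibitory relatives that bind similar ligands. Inhibitory members carry tyrosine motifs in their cytoplasmic tails that recruit phosphatases, whereas activating members have short tails and signal through adaptor chains, chiefly the common Fc gamma chain (*Fcer1g*) and DAP12 (*Tyrobp*), which recruit the kinase SYK. In lung, they are known from macrophages, monocytes, neutrophils, eosinophils, dendritic cells and B cells, where they read immunoglobulin, sialic acid, lipids and dying cells. IL-33 is an epithelial alarmin whose receptor signals through MyD88.

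Summed over the 53 genes, expression was 171, 179 and 167 FPKM in the PBS mice, 575, 564 and 566 FPKM in the IL-33 mice and 422, 387 and 395 FPKM in the IL-33+LM8 mice. The 3 groups did not overlap, and the IL-33+LM8 mice lay between the others. In IL-33 against PBS, 31 of the 46 genes tested were called higher and 3 lower. That is 67.4% and 6.52% of them, where 10.8% and 6.24% of all 16831 genes tested were called, so the share of higher genes was above the background and that of lower genes was near it. A call required a Benjamini-Hochberg adjusted p under 0.05 over all genes tested in edgeR's quasi-likelihood test together with a log2 fold change of 1 or more in either direction (SE, standard error of the log2 fold change). The median log2 fold change was 1.72 for the 46 genes and -0.0053 for all genes. Without the filter on low values, the counts were again 31 and 3, of 52 genes tested.

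In IL-33+LM8 against IL-33, 4 of the 46 were called higher (*Cd300e*, *Trem3*, *Trem1* and *Treml4*) and 6 lower (*Fcrlb*, *Trem2*, *Siglecf*, *Fcgr2b*, *Siglecg* and *Cd300c2*). These are 8.7% and 13.0% of the genes tested, beside 1.46% and 3.93% of all 16831. Their median log2 fold change was -0.33, that of all genes -0.0062. In IL-33+LM8 against PBS, 29 of 46 were called higher, which is 63.0% beside 5.87% of all 16829 genes tested, and their median was 1.40 beside 0.0035. None was called lower by edgeR, DESeq2 or limma, where 1.46% of all genes were; 2 had an unadjusted p under 0.05 in that direction in edgeR. The 3 comparisons share mice with one another, so their counts are not independent.

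**Figure D1:**
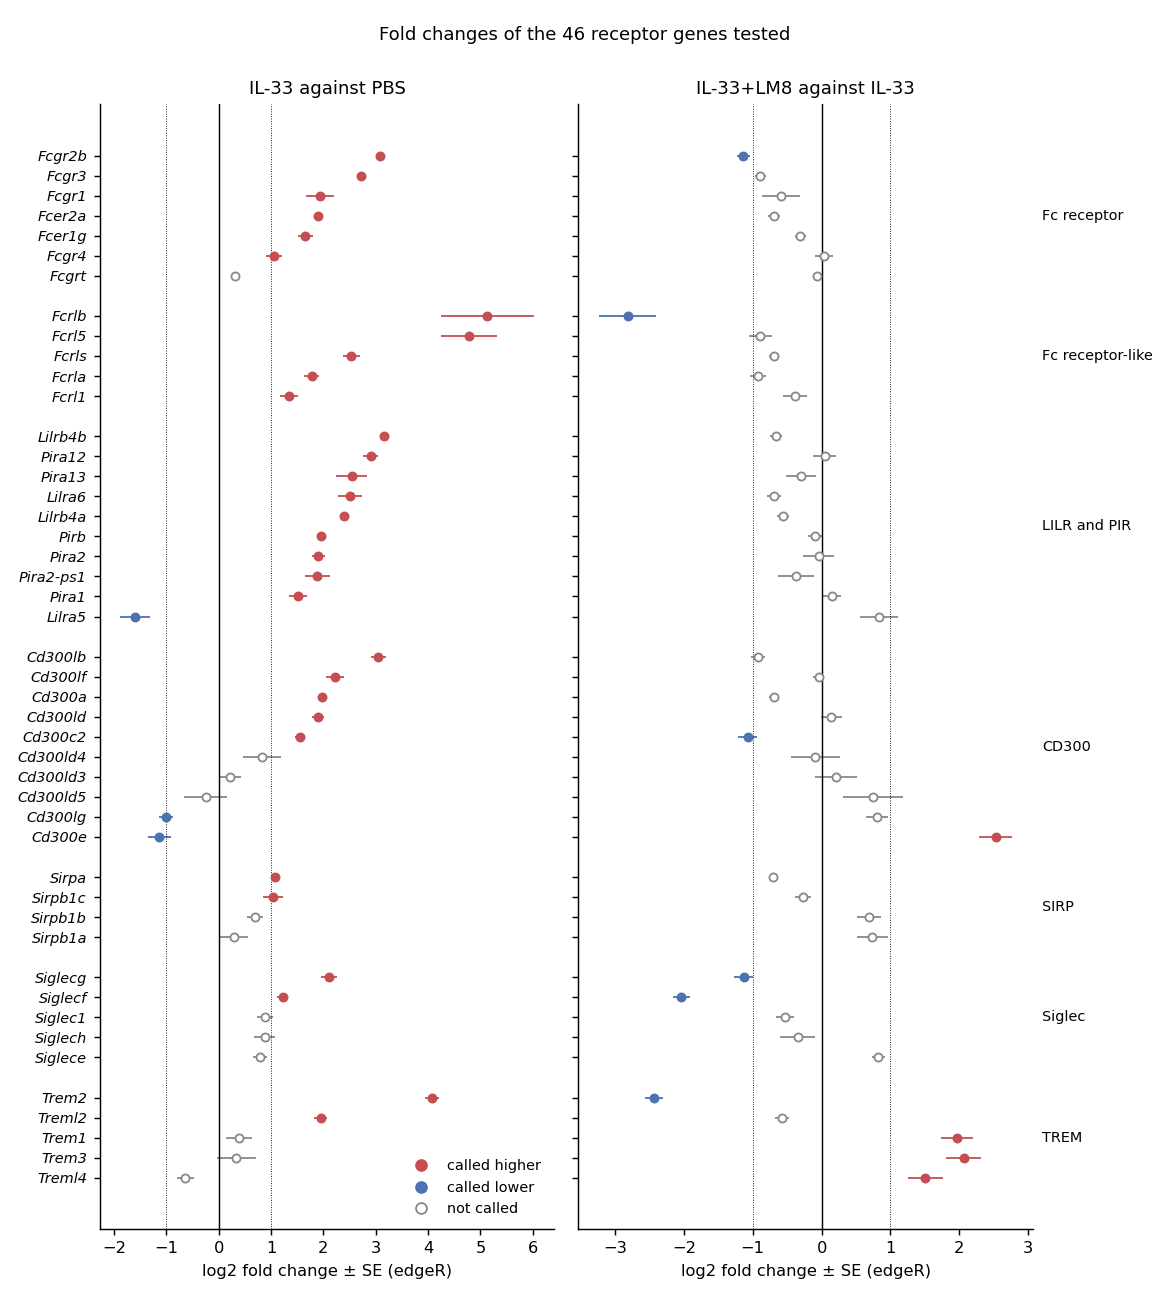
Log2 fold change with its standard error (edgeR) for each of the 46 receptor genes tested, by family, in IL-33 against PBS (left) and IL-33+LM8 against IL-33 (right). Filled points were called, 31 higher and 3 lower on the left and 4 higher and 6 lower on the right, and dotted lines mark the minimum of 1.

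The classical Fc receptors were nearly all higher with IL-33. Of the 7, 6 were called higher in IL-33 against PBS and none lower (edgeR, also none with an unadjusted p under 0.05), and the same counts were found in IL-33+LM8 against PBS. With limma on log2(FPKM + 1), 3 were called higher in IL-33+LM8 against PBS, the calls of *Fcer2a*, *Fcgr1* and *Fcgr4* being lost. *Fcgr3* (ENSMUSG00000059498), the activating low-affinity IgG receptor, was the most abundant gene of all 53 in the IL-33 mice. *Fcgr3* was at 14.0, 13.5 and 13.4 FPKM in the PBS mice, 87.8, 90.7 and 89.0 FPKM in the IL-33 mice and 43.1, 53.3 and 47.8 FPKM in the IL-33+LM8 mice. The IL-33 mice were uniformly high and the IL-33+LM8 mice were intermediate, with no overlap between any groups. Its log2 fold change was 2.71 (SE 0.05, adjusted p = 3.9e-07) in IL-33 against PBS and -0.89 between IL-33+LM8 and IL-33, short of the minimum fold. 

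*Fcgr2b* (ENSMUSG00000026656) encodes the inhibitory IgG receptor. *Fcgr2b* was at 5.36, 5.13 and 4.66 FPKM in the PBS mice, 43.9, 42.5 and 42.8 FPKM in the IL-33 mice and 17.2, 21.9 and 19.6 FPKM in the IL-33+LM8 mice. Again the 3 groups did not overlap. It rose 8.53-fold with IL-33 (log2 fold change 3.09, SE 0.07, adjusted p = 5.1e-07) and was 2.20-fold lower in IL-33+LM8 than in IL-33 mice (log2 fold change -1.14, SE 0.09, adjusted p = 0.00023), the only one of the 7 Fc receptors called in that comparison. *Fcgr4* (ENSMUSG00000059089) and *Fcgr1* (ENSMUSG00000015947) encode the other activating IgG receptors of the mouse. *Fcgr4* was at 3.18, 3.75 and 3.03 FPKM in the PBS mice, 6.95, 6.20 and 7.63 FPKM in the IL-33 mice and 6.62, 7.76 and 6.94 FPKM in the IL-33+LM8 mice. *Fcgr1* was at 1.13, 0.731 and 1.37 FPKM in the PBS mice, 3.16, 4.75 and 4.55 FPKM in the IL-33 mice and 1.90, 3.79 and 2.61 FPKM in the IL-33+LM8 mice. Both were higher in each IL-33 mouse than in each PBS mouse, whereas the IL-33 and IL-33+LM8 mice overlapped. With IL-33, *Fcgr4* rose by a log2 fold change of 1.06 (SE 0.15, adjusted p = 0.00089), and *Fcgr1* by 1.94 (SE 0.27, adjusted p = 0.00081). This *Fcgr4* call was lost without the deepest library of each group compared (0.998) and without PBS replicate 3 (0.993) or IL-33 replicate 3 (0.994). It was also lost with limma on log2(FPKM + 1) (0.875). The call of *Fcgr1* in IL-33+LM8 against PBS (1.37) was lost without PBS replicate 1 or 2 or IL-33+LM8 replicate 2, and with that limma scale (0.838).

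*Fcer1g* (ENSMUSG00000058715) encodes the common gamma chain, which the activating IgG receptors, PIR-A and several other members need to signal and, for some, to reach the cell surface. *Fcer1g* was at 14.0, 20.2 and 15.8 FPKM in the PBS mice, 49.9, 56.2 and 51.6 FPKM in the IL-33 mice and 43.7, 44.1 and 39.7 FPKM in the IL-33+LM8 mice. All IL-33 mice were above all IL-33+LM8 mice, and these above all PBS mice. The chain rose by 1.66 (SE 0.14, adjusted p = 5.8e-05) with IL-33, less than *Fcgr3* or *Fcgr2b*, and differed by -0.31 between IL-33+LM8 and IL-33 (adjusted p = 0.025), under the minimum fold. *Fcer2a*, the low-affinity IgE receptor CD23 of B cells, rose by 1.90 (SE 0.09, adjusted p = 4.1e-06). *Fcgrt*, the neonatal Fc receptor that salvages IgG from degradation, was the most abundant of the family in the PBS mice, at 30.4 ± 1.72 FPKM (SD, n = 3), and was not called in any comparison; its log2 fold change with IL-33 was 0.32.

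Because *Fcgr2b* and its activating counterparts compete for the same ligand, their balance was computed in each library as the FPKM of *Fcgr2b* divided by the sum of *Fcgr1*, *Fcgr3* and *Fcgr4*, a quantity that does not depend on library scaling. The ratio was 0.293, 0.286 and 0.262 in the PBS mice, 0.449, 0.418 and 0.422 in the IL-33 mice and 0.333, 0.337 and 0.342 in the IL-33+LM8 mice. No PBS mouse reached an IL-33+LM8 mouse, and no IL-33+LM8 mouse reached an IL-33 mouse. B cells also carry *Fcgr2b*, and the summed B cell markers ran in the same order; their part in the ratio was not tested. *Fcgr2b* and *Fcgr3* share 233 stretches of 31 bases, 4.15% and 13.4% of their own, so some reads could have been counted for either. Means were 0.280 ± 0.0162, 0.430 ± 0.0167 and 0.337 ± 0.00465 (SD, n = 3). The mean log2 ratio differed by 0.62 in IL-33 against PBS, by -0.35 in IL-33+LM8 against IL-33 and by 0.27 in IL-33+LM8 against PBS. Each of the 3 comparisons gave p = 0.1 in a two-sided exact permutation test, the smallest that 3 mice against 3 allow, and 0.1 after adjustment over the 3, so that none can pass 0.05.

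**Figure D2:**
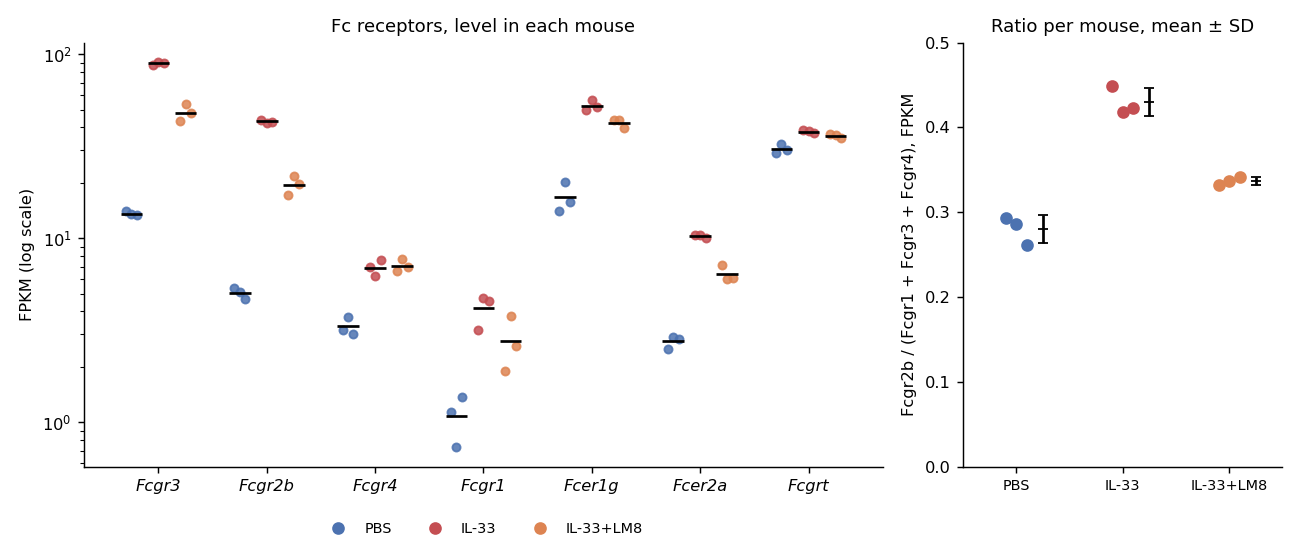
Left, FPKM on a log axis of the 7 Fc receptor genes in each mouse (points) with group means (lines). Right, the ratio of *Fcgr2b* to the summed activating IgG receptors in each mouse with mean ± SD, where the 3 groups lie apart with means of 0.280, 0.430 and 0.337.

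Among the ligands of these receptors, IgG heavy chain transcripts moved as well. *Ighg1*, *Ighg2b* and *Ighg3* were called higher with IL-33 (log2 fold changes of 1.87, 1.19 and 2.66). *Ighg2c* was not (0.57), although it was called higher without PBS replicate 2. With limma on log2(FPKM + 1), the calls of *Ighg1* and *Ighg2b* were lost, as was that of *Ighg3* between IL-33+LM8 and IL-33. All 4 were lower in IL-33+LM8 than in IL-33 mice, with log2 fold changes of -1.16, -1.29, -1.49 and -2.22. *Ighg2c* was also lower than with PBS (-1.63), a call lost without IL-33+LM8 replicate 1 or 2. The *Ighg1* call in IL-33+LM8 against IL-33 was lost without IL-33 replicate 1, 2 or 3 or IL-33+LM8 replicate 1 or 3. That call was also lost without the deepest library of each group compared, with no filter on low values and with limma on log2(FPKM + 1). Transcript of the IgE heavy chain (*Ighe*) was below the filter, at no more than 0.0739 FPKM in any mouse.

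The Fc receptor-like genes were higher with IL-33. All 5 that were tested were called higher with IL-33, and none lower (edgeR; also none with an unadjusted p under 0.05). *Fcrlb* and *Fcrla* encode intracellular relatives of the Fc receptors known from B cells. *Fcrlb* was at 0.208, 0 and 0.418 FPKM in the PBS mice, 7.69, 6.32 and 9.09 FPKM in the IL-33 mice and 0.494, 1.69 and 1.06 FPKM in the IL-33+LM8 mice. The IL-33 mice stood far above the rest, while the PBS mice were near the limit of detection with counts between 0 and 42, so the size of the rise is poorly known. Its log2 fold change was 5.13 (SE 0.88, adjusted p = 0.0021) in IL-33 against PBS and -2.82 (SE 0.42, adjusted p = 0.0026) between IL-33+LM8 and IL-33. When 1 mouse was left out, these values ran from 4.57 to 6.13 and from -3.29 to -2.48. *Fcrla*, its neighbour on chromosome 1, changed by 1.78 with IL-33 and -0.92 with LM8 added, the latter not called.

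*Fcrl5*, a surface receptor of B cell subsets, was counted between 8 and 52 times in PBS mice and between 527 and 737 times in IL-33 mice. *Fcrl5* was at 0.0878, 0.0354 and 0.193 FPKM in the PBS mice, 3.09, 3.13 and 2.68 FPKM in the IL-33 mice and 1.48, 1.93 and 1.37 FPKM in the IL-33+LM8 mice. No group overlapped another, and the fold was highest in IL-33 against PBS, with a log2 fold change of 4.78 (SE 0.53, adjusted p = 0.00023). It stayed higher than PBS in IL-33+LM8 mice (log2 fold change 3.91, SE 0.55, adjusted p = 0.0023). When 1 mouse was left out, the values ran from 4.38 to 5.56 in IL-33 against PBS and from 3.51 to 4.68 in IL-33+LM8 against PBS, so the size of this rise is uncertain too. *Fcrls*, which is known from macrophages and microglia rather than B cells, was the most abundant of the family. *Fcrls* was at 3.23, 3.63 and 2.36 FPKM in the PBS mice, 18.9, 17.2 and 17.5 FPKM in the IL-33 mice and 11.2, 10.3 and 11.7 FPKM in the IL-33+LM8 mice. Here too the IL-33+LM8 mice lay between the other groups, and the rise with IL-33 was 2.54 (SE 0.16, adjusted p = 1.7e-05). *Fcrl1*, a B cell coreceptor, rose by 1.35.

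The B cell markers *Ms4a1*, *Cd79a*, *Cd79b* and *Pax5* moved along with these genes. All 4 were called higher with IL-33 and in IL-33+LM8 against PBS, and their log2 fold changes in IL-33+LM8 against IL-33 lay between -0.86 and -0.50, under the minimum fold. Their summed level was 27.5, 34.9 and 27.3 FPKM with PBS, 107, 128 and 97.3 FPKM with IL-33 and 74.2, 66.0 and 64.8 FPKM with IL-33+LM8, with *Cd79b* the most abundant and no marker at 0. The part of these markers in the result was not tested, and in whole lung RNA more cells of a type and more RNA per cell cannot be told apart.

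In the LILR and PIR family, 9 of the 10 genes tested were called higher with IL-33 and 1, *Lilra5*, was called lower. Against PBS, 9 were also called higher in IL-33+LM8 mice, and no gene of the family was called between IL-33+LM8 and IL-33 by edgeR, DESeq2 or limma (4 had an unadjusted p under 0.05 in edgeR). *Lilrb4a* and *Lilrb4b*, the gp49 receptors of mast cells and myeloid cells, were the most abundant. *Lilrb4a* was at 10.3, 10.2 and 9.91 FPKM in the PBS mice, 53.8, 50.8 and 54.8 FPKM in the IL-33 mice and 40.6, 31.7 and 35.9 FPKM in the IL-33+LM8 mice. *Lilrb4b* was at 4.13, 3.95 and 3.85 FPKM in the PBS mice, 37.9, 31.9 and 36.9 FPKM in the IL-33 mice and 24.4, 20.2 and 22.8 FPKM in the IL-33+LM8 mice. For both, the IL-33+LM8 mice were below every IL-33 mouse and well above every PBS mouse. The rises with IL-33 were 2.39 (SE 0.05, adjusted p = 5.0e-07) and 3.15 (SE 0.08, adjusted p = 6.9e-07), and the differences of IL-33+LM8 from IL-33 were -0.56 and -0.66, under the minimum fold. The copies are much alike, with 39.1% and 36.7% of their stretches of 31 bases shared with another gene of the 53, so counts of each alone are uncertain.

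*Pirb* encodes the inhibitory paired receptor, which binds MHC class I, and the *Pira* genes its activating relatives. *Pirb* was at 5.09 ± 0.158, 19.9 ± 1.56 and 18.6 ± 2.38 FPKM with PBS, IL-33 and IL-33+LM8 (SD, n = 3), and the IL-33 and IL-33+LM8 groups overlapped. *Pira12* was at 0.707, 0.846 and 0.714 FPKM in the PBS mice, 5.79, 5.33 and 5.94 FPKM in the IL-33 mice and 7.34, 4.63 and 5.66 FPKM in the IL-33+LM8 mice. *Pira13* was at 0.215, 0.303 and 0.399 FPKM in the PBS mice, 1.80, 2.14 and 1.42 FPKM in the IL-33 mice and 1.73, 1.40 and 1.24 FPKM in the IL-33+LM8 mice. In both, each mouse given IL-33, with or without LM8, was above each PBS mouse. *Pira12* rose by 2.91 (SE 0.14, adjusted p = 5.8e-06) and *Pira13* by 2.54 (SE 0.30, adjusted p = 0.00031); in IL-33+LM8 against IL-33 they were at 0.05 and -0.30, with standard errors of 0.17 and 0.22, and not called. *Pira1*, *Pira2*, *Lilra6* and the pseudogene *Pira2-ps1* rose by between 1.51 and 2.50 on the log2 scale. Between 47.2% and 96.2% of the stretches of 31 bases of the *Pira* genes and *Lilra6*, and 37.5% of those of *Pirb*, recur in other genes of the 53. How the authors' counting assigned such reads is not stated, so the counts of single copies are uncertain. The promoters of *Pirb* and *Pira1*, 2 neighbours on chromosome 7 that rose together, show how close these 2 copies are: 292 of 300 bases (97.3%) are the same. They were compared position by position without gaps, in the RefSeq windows of GRCm38.p6, from 250 bases before to 50 after the start. Both are on the minus strand, at chr7:3720333-3720632 for *Pirb* and chr7:3739868-3740167 for *Pira1*. Compared in the same way, *Pira2* shared 25.0% of positions with *Pira1* and 24.3% with *Pirb*, and *Lilra6* shared 21.3% and 21.7%. A comparison without gaps does not align windows whose like stretches start at different positions. That was the case for *Pira2* and *Lilra6*, whose windows hold much the same sequence as *Pirb* and *Pira1* at shifted positions. Their low percentages therefore do not show that their promoters differ. Capitals mark GAGGAA, the core of the PU box that ETS factors of myeloid cells bind, or its reverse complement, of which each window holds 3.
Pirb: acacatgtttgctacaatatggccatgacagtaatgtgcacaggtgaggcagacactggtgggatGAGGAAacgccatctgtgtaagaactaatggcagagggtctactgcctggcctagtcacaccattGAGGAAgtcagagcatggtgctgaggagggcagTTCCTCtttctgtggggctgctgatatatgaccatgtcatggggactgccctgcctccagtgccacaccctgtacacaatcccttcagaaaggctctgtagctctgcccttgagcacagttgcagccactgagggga
Pira1: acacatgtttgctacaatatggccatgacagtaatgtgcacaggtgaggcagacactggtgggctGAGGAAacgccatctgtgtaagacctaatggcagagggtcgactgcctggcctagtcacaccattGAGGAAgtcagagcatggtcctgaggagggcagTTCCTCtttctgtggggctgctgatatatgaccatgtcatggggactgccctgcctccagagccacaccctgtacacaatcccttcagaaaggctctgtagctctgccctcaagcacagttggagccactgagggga

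Against the rest of the family, *Lilra5* was at 4.05 ± 0.706 FPKM with PBS, 1.33 ± 0.442 with IL-33 and 2.38 ± 0.258 with IL-33+LM8 (SD, n = 3). It encodes an activating receptor of monocytes and neutrophils and fell by 1.60 on the log2 scale with IL-33 (SE 0.28, adjusted p = 0.0023). Its difference between IL-33+LM8 and IL-33 was 0.84 and was not called.

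The CD300 receptors, which bind lipids and phospholipids on dying cells, split in both directions. With IL-33, 5 of 10 tested were called higher (*Cd300a*, *Cd300c2*, *Cd300lb*, *Cd300ld* and *Cd300lf*) and 2 lower (*Cd300e* and *Cd300lg*). Of all genes tested, 10.8% were called higher and 6.24% lower. DESeq2 called 1 CD300 gene lower, and limma on log2(FPKM + 1) called none. *Cd300c2*, an activating member of macrophages and dendritic cells, had the highest mean of the family with PBS and with IL-33. *Cd300c2* was at 6.67, 6.94 and 5.98 FPKM in the PBS mice, 19.1, 19.1 and 19.5 FPKM in the IL-33 mice and 10.7, 7.24 and 9.49 FPKM in the IL-33+LM8 mice. It rose by 1.55 (SE 0.09, adjusted p = 1.4e-05) with IL-33 and was 2.11-fold lower in IL-33+LM8 mice (log2 fold change -1.08, SE 0.14, adjusted p = 0.0014), where it no longer differed from PBS by a call (0.49); the IL-33+LM8 call was lost without IL-33+LM8 replicate 2 (-0.94).

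The other CD300 genes that rose with IL-33 were not called between IL-33+LM8 and IL-33. *Cd300lb* encodes an activating receptor that pairs with DAP12. *Cd300lb* was at 1.16, 1.64 and 1.33 FPKM in the PBS mice, 11.3, 12.4 and 10.5 FPKM in the IL-33 mice and 6.44, 6.20 and 5.36 FPKM in the IL-33+LM8 mice. Its 3 groups lay apart, the rise with IL-33 was 3.05 (SE 0.15, adjusted p = 5.2e-06), and the difference of IL-33+LM8 from IL-33 was -0.93. *Cd300lf* encodes a mainly inhibitory receptor of myeloid cells. *Cd300lf* was at 2.93, 1.79 and 2.20 FPKM in the PBS mice, 10.7, 10.5 and 11.1 FPKM in the IL-33 mice and 11.7, 9.47 and 10.3 FPKM in the IL-33+LM8 mice. *Cd300ld* was at 1.87, 1.83 and 1.98 FPKM in the PBS mice, 7.54, 7.58 and 6.07 FPKM in the IL-33 mice and 9.01, 6.14 and 8.19 FPKM in the IL-33+LM8 mice. For *Cd300lf* and the activating *Cd300ld*, the IL-33 and IL-33+LM8 mice overlapped. Their log2 fold changes were 2.22 and 1.90 with IL-33 and 2.19 and 2.05 in IL-33+LM8 against PBS. The inhibitory *Cd300a* rose by 1.98. *Cd300ld3*, *Cd300ld4* and *Cd300ld5*, which share between 84.1% and 100% of their stretches of 31 bases with other genes of the 53, were not called in any comparison, and their counts are uncertain.

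*Cd300e* (ENSMUSG00000048498), an activating receptor of monocytes, had the opposite course. *Cd300e* was at 1.59, 1.34 and 1.21 FPKM in the PBS mice, 0.536, 0.654 and 0.698 FPKM in the IL-33 mice and 4.61, 2.73 and 3.62 FPKM in the IL-33+LM8 mice. Every IL-33 mouse was below every PBS mouse, and every IL-33+LM8 mouse was above every PBS mouse. The log2 fold change was -1.13 (SE 0.22, adjusted p = 0.004) in IL-33 against PBS, 2.53 (SE 0.24, adjusted p = 0.00042) in IL-33+LM8 against IL-33 and 1.41 (SE 0.23, adjusted p = 0.0042) in IL-33+LM8 against PBS; with limma on log2(FPKM + 1), the calls against PBS were lost. Of the 6 monocyte markers, *Ccr2*, *Plac8* and *Vcan* were called higher with IL-33, *Nr4a1* lower, and *Ly6c2* and *Cx3cr1* not; in IL-33+LM8 against IL-33 their log2 fold changes lay between -0.79 and 0.61, under the minimum fold. Their summed level was 59.9, 47.2 and 52.3 FPKM with PBS, 96.8, 93.0 and 106 FPKM with IL-33 and 91.2, 83.7 and 85.5 FPKM with IL-33+LM8, *Plac8* being the most abundant, and their part in the course of *Cd300e* was not tested.

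*Cd300lg* encodes nepmucin, an adhesion receptor of capillary and lymph node endothelium. *Cd300lg* was at 5.80, 6.30 and 5.37 FPKM in the PBS mice, 3.35, 2.44 and 2.92 FPKM in the IL-33 mice and 6.03, 4.51 and 4.68 FPKM in the IL-33+LM8 mice. The IL-33 mice were all lower than the others. Its log2 fold change of -1.01 (SE 0.14, adjusted p = 0.00071) only just passed the minimum, and the call was lost with median-of-ratios size factors, DESeq2, limma, and without PBS replicate 2 or IL-33 replicate 2 or 3 (values between -0.999 and -0.812). Of the 5 endothelial markers, 3 (*Cdh5*, *Kdr* and *Tek*) were called lower with IL-33, and *Pecam1* (-0.59) and *Cldn5* (-0.23) were not. Their summed level was 638, 621 and 701 FPKM with PBS, 399, 379 and 415 FPKM with IL-33 and 592, 586 and 605 FPKM with IL-33+LM8, *Cldn5* being the most abundant, and their part was not tested.

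In the SIRP family, 2 of 4 genes were called higher with IL-33 and none was called between IL-33+LM8 and IL-33 by edgeR, DESeq2 or limma (4 had an unadjusted p under 0.05 in edgeR). *Sirpa*, the inhibitory receptor on macrophages that reads CD47 as a signal not to engulf, was the most abundant. *Sirpa* was at 17.9, 16.0 and 16.6 FPKM in the PBS mice, 37.5, 34.8 and 34.5 FPKM in the IL-33 mice and 21.0, 22.3 and 22.1 FPKM in the IL-33+LM8 mice. The groups were apart, and the IL-33+LM8 mice were much nearer to the PBS mice. *Sirpa* rose by 1.07 (SE 0.06, adjusted p = 1.1e-05) with IL-33, and its log2 fold change in IL-33+LM8 against IL-33 was -0.71, under the minimum fold. *Cd47* itself was not called (0.23 with IL-33 and -0.08 with LM8 added). The activating *Sirpb1a* and *Sirpb1b* were called higher only in IL-33+LM8 against PBS (1.04 and 1.40), and *Sirpb1c* only in IL-33 against PBS (1.03). The *Sirpb1a* call was lost without PBS replicate 1 or IL-33+LM8 replicate 1 and with limma on log2(FPKM + 1) or log2(FPKM + 0.1). The *Sirpb1c* call was lost without PBS replicate 1 or 3, without the deepest library of each group compared and with limma on log2(FPKM + 1) (0.747). With that limma scale, the *Sirpb1b* call was lost too (0.892). Between 53.7% and 71.9% of the stretches of 31 bases of the *Sirpb1* genes recur in other genes of the 53, so their counts are uncertain.

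The Siglecs bind sialic acid, and most are inhibitory. *Siglecf* (ENSMUSG00000039013) is a marker of eosinophils and alveolar macrophages. *Siglecf* was at 3.44, 3.28 and 3.50 FPKM in the PBS mice, 8.05, 7.08 and 8.74 FPKM in the IL-33 mice and 2.12, 1.84 and 1.83 FPKM in the IL-33+LM8 mice. IL-33 mice were high and IL-33+LM8 mice were the lowest of all, below every PBS mouse. It rose 2.34-fold with IL-33 (log2 fold change 1.22, SE 0.11, adjusted p = 7.0e-05) and was 4.12-fold lower in IL-33+LM8 than in IL-33 mice (log2 fold change -2.04, SE 0.12, adjusted p = 8.1e-05). Against PBS, the log2 fold change with IL-33+LM8 was -0.80 (adjusted p = 0.0037), short of the minimum fold.

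For both cell types a list of markers is given. Whether these genes are particular to the cell type in lung was not checked. Of 6 eosinophil markers tested, 5 (*Ccr3*, *Ear2*, *Ear6*, *Il5ra* and *Prg2*) were called higher with IL-33, and all 6 lower in IL-33+LM8 against IL-33. Summed over all 7 markers, the level was 101, 111 and 98.2 FPKM with PBS, 583, 640 and 582 FPKM with IL-33 and 140, 176 and 156 FPKM with IL-33+LM8; *Ear2* was the most abundant, and *Epx* was listed at 0 in each PBS mouse. Against PBS, the eosinophil sum was higher in IL-33+LM8 mice, a difference carried by *Ear2*, which was not called (0.81). Of the same list, *Ccr3*, *Ear6* and *Prg2* were called higher in that comparison (3.63, 4.24 and 4.39), and *Ear1* was called lower (-1.80). The 7 alveolar macrophage markers were mixed: *Itgax*, *Mrc1* and *Pparg* were called higher with IL-33 and *Marco* and *Krt79* lower, while in IL-33+LM8 against IL-33 *Marco* and *Krt79* were higher and *Itgax* lower. Their sum was 128, 127 and 113 FPKM with PBS, 172, 181 and 185 FPKM with IL-33 and 140, 153 and 129 FPKM with IL-33+LM8. From PBS to IL-33, mean FPKM rose from 8.38 to 70.1 for *Itgax* and from 8.44 to 38.5 for *Mrc1*. *Car4*, the most abundant of the list, went from 80.9 to 54.5 FPKM and was not called (-0.57). The part of either cell type in the values of *Siglecf* was not tested.

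*Siglecg*, an inhibitory receptor of B cells that is also found on myeloid cells, had the highest mean of the Siglecs in the IL-33 mice. *Siglecg* was at 2.12, 2.88 and 2.10 FPKM in the PBS mice, 10.8, 11.0 and 8.97 FPKM in the IL-33 mice and 5.65, 4.31 and 4.06 FPKM in the IL-33+LM8 mice. Its groups lay apart, with the IL-33+LM8 mice nearer to PBS. It rose by 2.11 (SE 0.15, adjusted p = 2.6e-05) with IL-33 and was -1.13 (SE 0.14, adjusted p = 0.0012) in IL-33+LM8 against IL-33, a call lost without the 3 deepest libraries (-0.997). *Siglece*, which restrains neutrophils and macrophages, was at 2.52 ± 0.0949, 4.37 ± 0.232 and 7.74 ± 0.443 FPKM with PBS, IL-33 and IL-33+LM8 (SD, n = 3). Its groups did not overlap, and it was called only in IL-33+LM8 against PBS (log2 fold change 1.63, SE 0.11, adjusted p = 0.00013). *Siglec1* (sialoadhesin of macrophages) and *Siglech*, a marker of plasmacytoid dendritic cells, were not called, with log2 fold changes of 0.88 and 0.88 with IL-33. Of 4 markers of plasmacytoid dendritic cells tested, *Spib* and *Klk1* were called higher with IL-33 and *Cox6a2* lower, *Spib* being lower with LM8 added; the 5 markers summed to between 12.8 and 14.7 FPKM with PBS, between 20.1 and 26.4 FPKM with IL-33 and between 14.3 and 15.4 FPKM with IL-33+LM8, with *Spib* the most abundant.

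**Figure D3:**
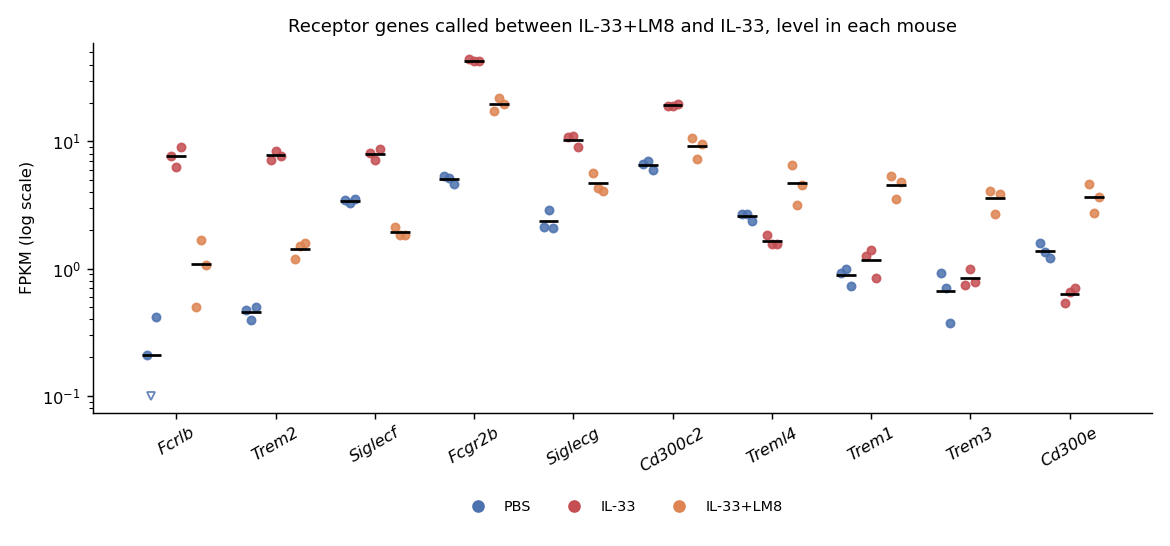
FPKM on a log axis of the 10 receptor genes called between IL-33+LM8 and IL-33, in each mouse (points) with group means (lines), from the largest fall on the left to the largest rise on the right. The open triangle is the PBS mouse with *Fcrlb* listed at 0; *Siglecf* with IL-33+LM8 lies below PBS, and *Cd300e* with IL-33 lies below both other groups.

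The TREM genes lie close together on chromosome 17 in the order *Trem1*, *Trem3*, *Treml4*, *Treml2*, *Trem2*, *Treml1*, with 1 other coding gene between *Treml2* and *Trem2*, and they went in different directions. *Trem2* (ENSMUSG00000023992), a lipid and apoptotic cell receptor of macrophages that signals through DAP12, was the only one called lower in IL-33+LM8 against IL-33. *Trem2* was at 0.469, 0.396 and 0.503 FPKM in the PBS mice, 7.13, 8.43 and 7.68 FPKM in the IL-33 mice and 1.19, 1.49 and 1.59 FPKM in the IL-33+LM8 mice. The IL-33 mice were far above the rest, and the IL-33+LM8 mice remained above PBS. It rose 17.0-fold with IL-33 (log2 fold change 4.08, SE 0.13, adjusted p = 1.4e-06), was 5.44-fold lower with LM8 added (log2 fold change -2.44, SE 0.13, adjusted p = 6.2e-05) and was still 3.12-fold above PBS (log2 fold change 1.65, SE 0.19, adjusted p = 0.00097), the last call being lost with limma on log2(FPKM + 1).

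*Trem1* (ENSMUSG00000042265), the DAP12-coupled receptor of neutrophils and monocytes that amplifies responses to microbial products, took another course. *Trem1* was at 0.919, 0.999 and 0.734 FPKM in the PBS mice, 1.25, 1.40 and 0.839 FPKM in the IL-33 mice and 5.34, 3.51 and 4.78 FPKM in the IL-33+LM8 mice. PBS and IL-33 mice overlapped, and all IL-33+LM8 mice were above both. *Trem3* was at 0.920, 0.709 and 0.371 FPKM in the PBS mice, 0.740, 0.999 and 0.777 FPKM in the IL-33 mice and 4.10, 2.70 and 3.88 FPKM in the IL-33+LM8 mice. *Treml4* was at 2.69, 2.69 and 2.35 FPKM in the PBS mice, 1.83, 1.57 and 1.56 FPKM in the IL-33 mice and 6.50, 3.18 and 4.51 FPKM in the IL-33+LM8 mice. *Trem3*, also DAP12-coupled, had the same order as *Trem1*, whereas *Treml4*, a receptor for dead cells, was lower in each IL-33 mouse than in each PBS mouse. With LM8 added to IL-33, the log2 fold changes were 1.96 (SE 0.23, adjusted p = 0.00098) for *Trem1*, 2.07 (SE 0.26, adjusted p = 0.0012) for *Trem3* and 1.51 (SE 0.26, adjusted p = 0.0047) for *Treml4*. These 3 were not called in IL-33 against PBS (0.39, 0.33 and -0.64).

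*Treml2*, between *Treml4* and *Trem2* and known from B cells, neutrophils and macrophages, had the highest mean of the family over all 9 mice, although it led in no single group. *Treml2* was at 1.39, 1.55 and 1.30 FPKM in the PBS mice, 6.07, 5.63 and 4.78 FPKM in the IL-33 mice and 4.02, 3.51 and 3.52 FPKM in the IL-33+LM8 mice. It rose by 1.95 (SE 0.12, adjusted p = 1.6e-05) with IL-33, and its difference between IL-33+LM8 and IL-33 was under the minimum fold (-0.58). *Treml1*, the platelet member, was below the filter, at between 0.176 and 0.773 FPKM in all mice. Of 4 platelet markers tested, *Pf4* was called higher with IL-33 and *Gp9* and *Ppbp* lower, the last 2 being higher with LM8 added; the 5 markers summed to between 12.7 and 15.7 FPKM with PBS, between 13.7 and 14.6 FPKM with IL-33 and between 17.3 and 21.4 FPKM with IL-33+LM8, with *Pf4* the most abundant.

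Neutrophil and interstitial macrophage markers are given beside these genes. All 8 neutrophil markers were called higher with IL-33, and 5 (*Cxcr2*, *Ly6g*, *Mmp8*, *S100a8* and *S100a9*) were called higher again in IL-33+LM8 against IL-33. Their summed level was 32.9, 32.4 and 26.3 FPKM with PBS, 189, 212 and 201 FPKM with IL-33 and 1024, 876 and 892 FPKM with IL-33+LM8, *S100a9* being the most abundant and *Stfa2l1* listed at 0 in each PBS mouse. The part of neutrophils in the values of *Trem1* and *Trem3* was not tested. Of 5 interstitial macrophage markers, 4 (*C1qa*, *C1qb*, *C1qc* and *Folr2*) were called higher with IL-33, and *C1qa*, *C1qb* and *C1qc* lower in IL-33+LM8 against IL-33. They summed to 191, 178 and 189 FPKM with PBS, 519, 525 and 489 FPKM with IL-33 and 323, 343 and 328 FPKM with IL-33+LM8. *Lyve1*, the most abundant of the list, ran opposite to this sum, falling with IL-33 and rising with LM8 added. Its means were 123, 79.0 and 149 FPKM with PBS, IL-33 and IL-33+LM8, and neither change was called (-0.64 and 0.92). *Folr2* changed little with LM8 added (0.08). The part of interstitial macrophages in the values of the TREM genes was not tested.

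The promoters of *Trem1*, *Treml4* and *Trem2* are shown because these genes of one cluster moved apart. The RefSeq windows of GRCm38.p6 run from 250 bases before to 50 after the start on the plus strand, at chr17:48232489-48232788 for *Trem1*, chr17:48264045-48264344 for *Treml4* and chr17:48346151-48346450 for *Trem2*. Capitals again mark GAGGAA or its reverse complement, held once by *Trem1* and *Trem2* and at 2 places by *Treml4*.
Trem1: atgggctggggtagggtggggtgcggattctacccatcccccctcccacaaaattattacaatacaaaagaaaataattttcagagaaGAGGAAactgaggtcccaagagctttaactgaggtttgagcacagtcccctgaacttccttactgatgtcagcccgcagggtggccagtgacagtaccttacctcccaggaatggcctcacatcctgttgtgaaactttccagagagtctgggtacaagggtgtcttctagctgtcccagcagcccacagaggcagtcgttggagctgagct
Treml4: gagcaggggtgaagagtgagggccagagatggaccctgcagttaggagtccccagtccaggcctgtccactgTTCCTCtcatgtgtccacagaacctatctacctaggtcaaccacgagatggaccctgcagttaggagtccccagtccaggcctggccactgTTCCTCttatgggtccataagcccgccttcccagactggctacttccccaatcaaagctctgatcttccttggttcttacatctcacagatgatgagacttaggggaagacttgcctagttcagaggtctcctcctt
Trem2: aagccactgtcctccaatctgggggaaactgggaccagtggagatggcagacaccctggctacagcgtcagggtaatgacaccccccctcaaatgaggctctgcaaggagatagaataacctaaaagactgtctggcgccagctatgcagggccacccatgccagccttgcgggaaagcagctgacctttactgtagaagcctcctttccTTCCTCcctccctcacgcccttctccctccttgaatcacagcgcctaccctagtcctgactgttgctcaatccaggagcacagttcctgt

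Of the 53 genes, 39 had 1 or more RefSeq promoters, 43 in all. GAGGAA occurred on either strand in 27 of these 43 windows (62.8%), beside 28.3% of all 32851 windows of the same length. These 43 are not independent, since *Fcgr3* and *Siglecg* each enter with overlapping windows and the *Cd300ld*, *Pira*, *Pirb* and *Lilra6* windows include copies of much the same sequence. A second motif, TTC and GAA with any 4 bases between them, as STAT factors bind, was found in 1 window (2.33%), that of *Fcer2a*, beside 6.95% of all windows. The GAA of the first motif can be the GAA of the second. These are matches of letters and not sites of binding; they were held by genes that rose, fell or were not called with LM8 alike, as the windows of *Trem1* and *Trem2* show.

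**Figure D4:**
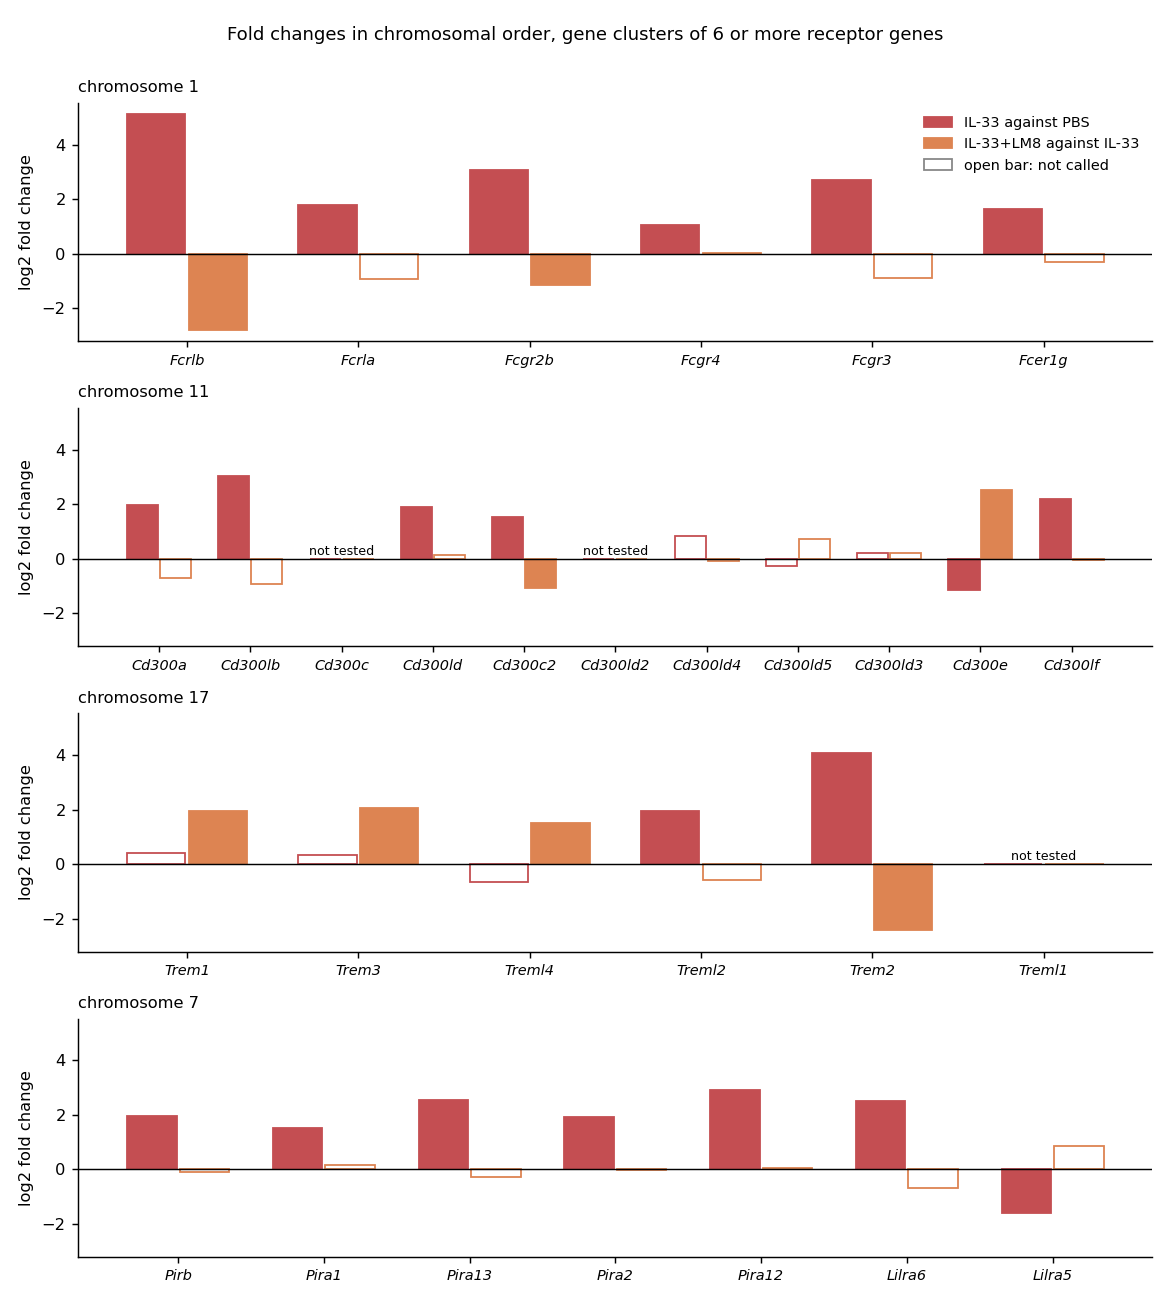
Log2 fold changes (edgeR) of the receptor genes in chromosomal order in the 4 clusters of 6 or more, for IL-33 against PBS (red) and IL-33+LM8 against IL-33 (orange). Filled bars were called and open bars were not. On chromosome 17, *Trem1*, *Trem3* and *Treml4* are filled upwards and *Trem2* downwards with LM8. On chromosome 11, only *Cd300e* is filled downwards with IL-33 and upwards with LM8, and *Cd300c2* is filled downwards with LM8.

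Genes that serve these receptors were taken from 3 lists of 39 genes, of which 35 passed the filter. In IL-33 against PBS, 19 of the 35 (54.3%) were called higher, beside 10.8% of all genes, and none lower by edgeR, DESeq2 or limma (1, *Ptpn11*, had an unadjusted p under 0.05 in edgeR). Of the 16 adaptors and signalling enzymes, 11 were higher with IL-33. *Tyrobp*, encoding DAP12, was at 34.2, 36.5 and 33.6 FPKM with PBS, 87.9, 98.2 and 95.9 FPKM with IL-33 and 60.7, 63.7 and 63.8 FPKM with IL-33+LM8. Its groups were apart in the same order as those of *Fcer1g*, and the rise with IL-33 was 1.43 on the log2 scale. The kinases *Syk* and *Btk* rose by 1.78 and 2.11, the adaptors *Lat2* and *Lcp2* by 2.21 and 2.10, and *Vav1*, *Plcg2*, *Fgr*, *Card9* and *Hcst* by between 1.13 and 1.97. Among the phosphatases of inhibitory receptors, *Ptpn6* was called higher (1.26), and *Inpp5d* (0.76) and *Ptpn11* (-0.34) were not.

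None of the 16 was called between IL-33+LM8 and IL-33 by edgeR, DESeq2 or limma; 13 had an unadjusted p under 0.05 in edgeR, 11 of them lower. The lowest value was that of *Lat2* (-0.997), which edgeR called lower without IL-33 replicate 1 or IL-33+LM8 replicate 1 or 2. Over the 3 lists, 5 genes (14.3%) were called lower in that comparison, beside 3.93% of all genes. They were the 4 IgG heavy chains and *Cd200r1*, an inhibitory receptor of myeloid cells and type 2 lymphocytes, which was 2.60 with IL-33 and -1.02 with LM8 added. The *Cd200r1* call in IL-33+LM8 against IL-33 was lost without IL-33 replicate 1 or 3 or IL-33+LM8 replicate 3. That call was also lost without the deepest library of each group compared and with limma on log2(FPKM + 1). None was called higher by the same 3 tools (9 had an unadjusted p under 0.05 in edgeR). In IL-33+LM8 against PBS, 17 genes were called higher (48.6%, beside 5.87% of all genes) and 1 lower, beside 1.46% of all genes.

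Among related receptors outside the name rule, 7 of 10 tested were called higher in IL-33+LM8 than in PBS mice, beside 5.87% of all genes. They were *Cd33* (1.66), a further Siglec; *Pilra*, *Pilrb1* and *Pilrb2* (1.03, 1.14 and 1.30), a paired inhibitory and activating set; the IgM and IgA receptors *Fcamr* and *Pigr* (1.47 and 2.18); and *Cd200r1* (1.60). The *Pilra* call was lost without IL-33+LM8 replicate 3, without the deepest library of each group compared and with limma on log2(FPKM + 1) or log2(FPKM + 0.1). The *Pilrb1* and *Pilrb2* calls were lost with limma on log2(FPKM + 1). With IL-33 alone, *Pilra* was 0.09 and *Pilrb1* 0.25, and neither was called. *Fcer1a* and *Ms4a2*, the alpha and beta chains of the high-affinity IgE receptor of mast cells and basophils, were below the filter, at no more than 0.591 and 0.607 FPKM in any mouse. Of 4 mast cell and basophil markers tested, *Gata2* was called lower with IL-33 and the others were not called. With IL-33, *Kit* (-0.59) and *Cma1* (-0.99) were below PBS, and *Cpa3* (0.95) was above it. The 6 markers summed to between 62.4 and 69.2 FPKM with PBS, between 33.7 and 38.4 FPKM with IL-33 and between 54.2 and 56.1 FPKM with IL-33+LM8. *Gata2* was the most abundant, with means of 40.6, 17.8 and 30.6 FPKM. The 5 epithelial markers, led by *Scgb1a1*, summed to between 31809 and 34586 FPKM with PBS, between 13639 and 14830 FPKM with IL-33 and between 26240.0 and 28481 FPKM with IL-33+LM8, with *Scgb1a1* and *Sftpc* called lower with IL-33.

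**Figure D5:**
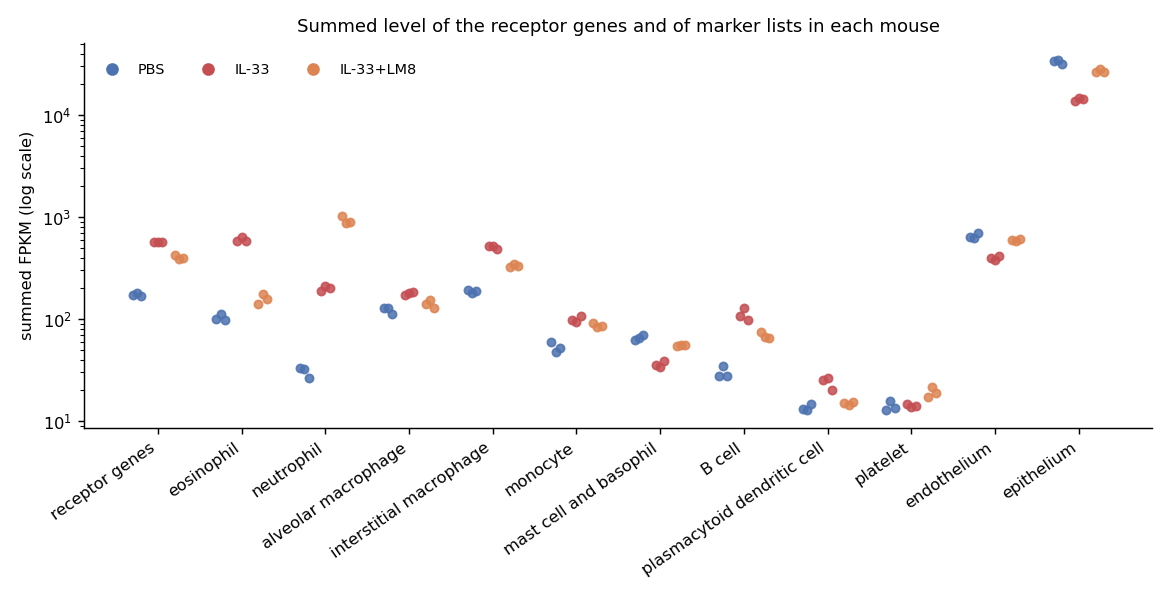
Summed FPKM on a log axis of the 53 receptor genes and of each marker list in each mouse. The receptor genes follow the order PBS, IL-33+LM8, IL-33 without overlap, as do the eosinophil, interstitial macrophage, alveolar macrophage, monocyte and B cell lists, while the neutrophil list is highest with IL-33+LM8.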

How the data were processed

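Reads were processed by the authors' sequencing company. The submitters' notes name HISAT2 2.0, Bowtie 0.12.2, StringTie 1.3.0 and mm10, in no stated order, and gene coordinates in the table are not those of that build, so genes are placed by chromosome and order only. The deposited table gives, for each of 9 libraries, raw read counts per gene and FPKM as computed by the authors; whether counting used strand, and how reads shared by near-identical genes were assigned, is not stated. From the counts, edgeR 4.0.16 (R 4.3.3; TMM; quasi-likelihood test) was fitted on the whole table for the 6 mice of each comparison, after removal of genes whose FPKM averaged under 0.5 in the 9 mice or whose count was 0 throughout the 6. Calls needed a Benjamini-Hochberg adjusted p under 0.05 together with a log2 fold change of 1 or more in either direction, and the standard error is the log2 fold change divided by the square root of F. Fold multiples are ratios of mean FPKM, with no pseudocount. The ratio of *Fcgr2b* to activating receptors was tested by exact permutation.

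The receptor genes, the lists of partner and marker genes and the rules for naming genes were chosen with earlier results of these data known. Of the marker lists, 1 gene each of the B cell and interstitial macrophage lists is not reported here and enters no sum or count of its list. Values per mouse are given for the IgG receptors, *Fcer1g*, *Siglecf*, *Trem2*, *Cd300lg*, *Sirpa*, the most abundant gene of each family and, per comparison, the 10 largest called changes whose groups do not overlap. Floors and counting limits (3 counts for a count of 0) cover counting error only. Shared stretches of 31 bases were counted in GENCODE M21 transcripts, in which all 53 genes were found, and promoters came from RefSeq (GRCm38.p6) by symbol. A fit was tested on simulated data before use. Between replicate libraries, chi-square per degree of freedom was 20.4 or more, which leaves no library as a copy of another.

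Replicate numbers appear in the labels of each group. Across genes, deviations of same-numbered PBS and IL-33+LM8 libraries correlated at 0.31, 0.32 and 0.67, which meets the limit of 0.1 set for pairing, although the labels name no shared litter, batch or day; for the other 2 comparisons the correlations ran from -0.42 to 0.28. Alternatives covered filters, normalization, DESeq2 1.42.0, limma 3.58.1 on log2(FPKM + 1) and log2(FPKM + 0.1), a replicate block, a fit of all 9 mice, each mouse left out and, chosen after seeing the data, the deepest library of each group left out.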

Additional observations from a re-analysis of the deposited data

How the results depend on the processing

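Numbers of genes called moved by over 1.5 times with a stricter filter, with no minimum fold and with limma on log2(FPKM + 1). At a mean of at least 5 FPKM, which leaves fewer genes tested, 16 of the receptor genes were called in IL-33 against PBS in place of 34, 3 in place of 10 in IL-33+LM8 against IL-33 and 12 in place of 29 in IL-33+LM8 against PBS, with 2 in place of 5 partner genes in IL-33+LM8 against IL-33. With no minimum fold, 28 receptor genes and 25 partner genes passed between IL-33+LM8 and IL-33, and 29 in place of 19 partner genes in IL-33 against PBS. With limma on log2(FPKM + 1), a scale that compresses low genes, 18 receptor genes and 10 in place of 18 partner genes were called in IL-33+LM8 against PBS, and 2 partner genes between IL-33+LM8 and IL-33. The receptor genes not called with that limma scale were *Cd300e*, *Cd300lg*, *Fcgr4*, *Fcrl1*, *Pira1*, *Pira2-ps1* and *Sirpb1c* in IL-33 against PBS, *Siglecg* between IL-33+LM8 and IL-33, and *Cd300a*, *Cd300e*, *Fcer2a*, *Fcgr1*, *Fcgr4*, *Pira13*, *Pira2-ps1*, *Sirpb1a*, *Sirpb1b*, *Trem2* and *Treml2* in IL-33+LM8 against PBS. The partner genes not called with it were *Hcst*, *Ighg1* and *Ighg2b* in IL-33 against PBS, *Cd200r1*, *Ighg1* and *Ighg3* between IL-33+LM8 and IL-33, and *Ighg3*, *Lat2*, *Pilra*, *Pilrb1*, *Pilrb2*, *Plcg2*, *Ptpn6* and *Syk* in IL-33+LM8 against PBS. In IL-33+LM8 against PBS, the partner genes *Ighg3*, *Pilra* and *Ptpn6* were not called without the deepest libraries. The other settings kept these counts within 1.5 times, apart from the partner genes in IL-33+LM8 against IL-33, of which 3 were called without the deepest library of each group and 3 to 7 when 1 mouse was left out. With 1 mouse left out, 32 to 35, 10 to 11 and 27 to 31 receptor genes were called in the 3 comparisons. With the replicate number as a block, 34, 10 and 29 receptor genes and 19, 5 and 18 partner genes were called, and no receptor gene changed its call.

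Every change of sign was in a gene that was not called. In IL-33 against PBS, *Cd300ld5* ran from -0.46 to 0.12 on the log2 scale when 1 mouse was left out. Between IL-33+LM8 and IL-33, the ranges were -0.18 to 0.40 for *Cd300ld3*, -0.37 to 0.11 for *Cd300ld4*, -0.12 to 0.018 for *Cd300lf*, -0.037 to 0.12 for *Fcgr4*, -0.14 to 0.19 for *Pira12* and -0.33 to 0.16 for *Pira2*. Without the deepest libraries, *Cd300ld4* was at 0.13 and *Pira2* at 0.10. The ratio of *Fcgr2b* to activating receptors kept its direction under each setting run for it. The causes of these changes were not tested.

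Some calls lost by leaving out 1 of 3 mice lay close to the minimum fold, as for *Cd300lg* and *Fcgr4* in IL-33 against PBS. Counts near 0 with PBS limit the fold of *Fcrlb*, and reads that near-identical copies can share limit the *Pira* genes.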
